A study of Mus musculus with 24 samples.

Results

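Lysosomal hydrolases and lysosomal membrane proteins were followed in cultured skeletal muscle that had been exercised with light. The set holds 41 genes, chosen by name from the 56941 genes listed, namely the cathepsins and legumain, other lysosomal proteases, glycosidases, sulfatases, lipid-handling proteins, membrane proteins and progranulin. All 41 names were found in the tables, and 38 of them had enough counts to be tested among 13315 genes. Ctsc, Ctsk and Ctss were under that filter.

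The muscle was made from C2C12 mouse myoblasts that carry the blue light-gated channel ChR2 fused to the red fluorescent protein tdTomato (genotype ChR2::tdTomato). C2C12 is an established line from mouse muscle whose cells stop dividing and fuse into contractile myotubes when serum is changed. All 24 tissues, controls included, were grown on fibrin hydrogel and differentiated for about 2 weeks in horse serum with IGF-1. There were 6 libraries of the unstimulated control, and 6 each of tissue given 60 min of daily light pulses at 1, 4 or 10 Hz. The channel was present in every group, and unstimulated tissue also twitches spontaneously, so the control is neither resting nor free of the transgene. A single engineered line was used, and the labels do not say how many separate cultures or batches of cells the 6 replicates came from, so p-values measure the spread between these libraries. The comparisons ask how the frequency of stimulation bears on gene expression.

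Library depth ran from 8052369 to 18159144 estimated counts. Mitochondrial genes took 2.56% to 5.03% of TPM in the control and 2.62% to 7.27% at 1 Hz. They took 0.876% to 12.6% at 4 Hz and 2.78% to 4.63% at 10 Hz. The labels give the cell type as myoblast, whereas markers of myotubes were high. Acta1 (skeletal actin) averaged 7320 TPM and Myog (myogenin, a factor of differentiating muscle) 648 TPM in the control. Of 9 myotube markers, only Myog changed, lower at 1 Hz and at 4 Hz. Of markers of macrophages, cells rich in lysosomes, 9 of 12 stayed below 1 TPM in every library, among them Ptprc, Adgre1 and Tyrobp. Cd14 averaged 7.85 TPM in the control and rose at 4 Hz (log2 0.35, adjusted p = 0.016), the only macrophage marker that passed in any comparison with the control, and Cd68 (a lysosomal protein that is not confined to macrophages) averaged 84.6 TPM in the control. The summed macrophage markers ran from 82.8 to 113 TPM in the control, 62.9 to 96.2 at 1 Hz, 63.6 to 103 at 4 Hz and 70 to 90.6 at 10 Hz. The median sum in the control was 89.9 TPM, so the sum mostly follows Cd68 and does not measure macrophages. Since whole tissue was lysed, fewer cells of a type and less RNA per cell cannot be told apart.

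Lysosomes are acidic organelles in which proteins, glycans, lipids and nucleic acids that arrive by endocytosis or autophagy are broken down by soluble hydrolases. The hydrolases are made in the endoplasmic reticulum, sorted by mannose phosphate tags, and cleaved or folded into their active forms at low pH, while heavily glycosylated membrane proteins shield and equip the limiting membrane. In muscle, lysosomes clear damaged mitochondria, proteins and glycogen, and inherited loss of single hydrolases such as acid alpha-glucosidase (Gaa) or of Lamp2 causes muscle disease. Many lysosomal genes are known targets of TFEB, TFE3 and MITF, a family of transcription factors that bind the letters CACGTG near the start of transcription.

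The letters CACGTG, which are the same on both strands, were present between 250 bases before and 50 bases after the annotated start in 12 of the 41 genes (29.3%), in 5 of 20 other lysosomal hydrolases (25%) and in 7.84% of 21667 protein-coding genes. The last share covers protein-coding genes whether or not they were expressed here, while 38 of the 41 had enough counts to be tested. A share over expressed genes alone was not computed. The 26-base windows below show a match, in capitals, in 8 genes whose values are given later. They are read in the direction of transcription from the GRCm39 genome. They are shown because all 8 share these 6 letters and differ around them.

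Ctsb: ggtcaagcatCACGTGacgaatcagc
Ctsd: ttccttccccCACGTGacctgtatcc
Ctsf: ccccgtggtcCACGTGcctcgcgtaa
Gaa: tctgtgcgatCACGTGtttgactctg
Glb1: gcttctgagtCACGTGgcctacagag
Naglu: accttcaggtCACGTGgcccgaggtc
Arsa: aactcagtgtCACGTGttgtctgctc
Cln3: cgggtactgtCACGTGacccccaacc

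The windows lie at chr14:63359881-63359906 (plus strand) for Ctsb, chr7:141941794-141941819 (minus) for Ctsd, chr19:4905104-4905129 (plus) for Ctsf, chr11:119158639-119158664 (plus) for Gaa, chr9:114230088-114230113 (plus) for Glb1, chr11:100960837-100960862 (plus) for Naglu, chr15:89361628-89361653 (minus) for Arsa and chr7:126182514-126182539 (minus) for Cln3. The match begins at position -34 relative to the start in Ctsd, at -4 in Ctsf, at -64 in Gaa, at -46 in Glb1 and at -110 in Cln3, and inside the first exon, at 15, 10 and 11, in Ctsb, Naglu and Arsa. Lamp1, a main glycoprotein of the lysosomal membrane, had 4 copies, the most of the 41. A match in these letters is a description and does not show that a factor binds there.

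In unstimulated tissue the 41 genes spanned a wide range of levels per transcript length (TPM). The highest control mean was that of Ctsl at 1260 TPM, followed by Cd63 at 1090, Ctsd at 993, Psap at 747 and Ctsb at 618. Ctsl (18.5%), Cd63 (15.9%), Ctsd (14.5%), Psap (10.9%) and Ctsb (9.06%) held most of the summed TPM of the 41. Glycosidases and sulfatases sat lower, from Hexa at 245 TPM and Gaa at 52.1 down to Manba at 3.54 and Sgsh at 2.95. The cathepsins typical of blood cells and osteoclasts were near 0 in the control, where Ctsc did not exceed 0.169 TPM, Ctsk 0.214 and Ctss 0.148.

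**Figure D1:**
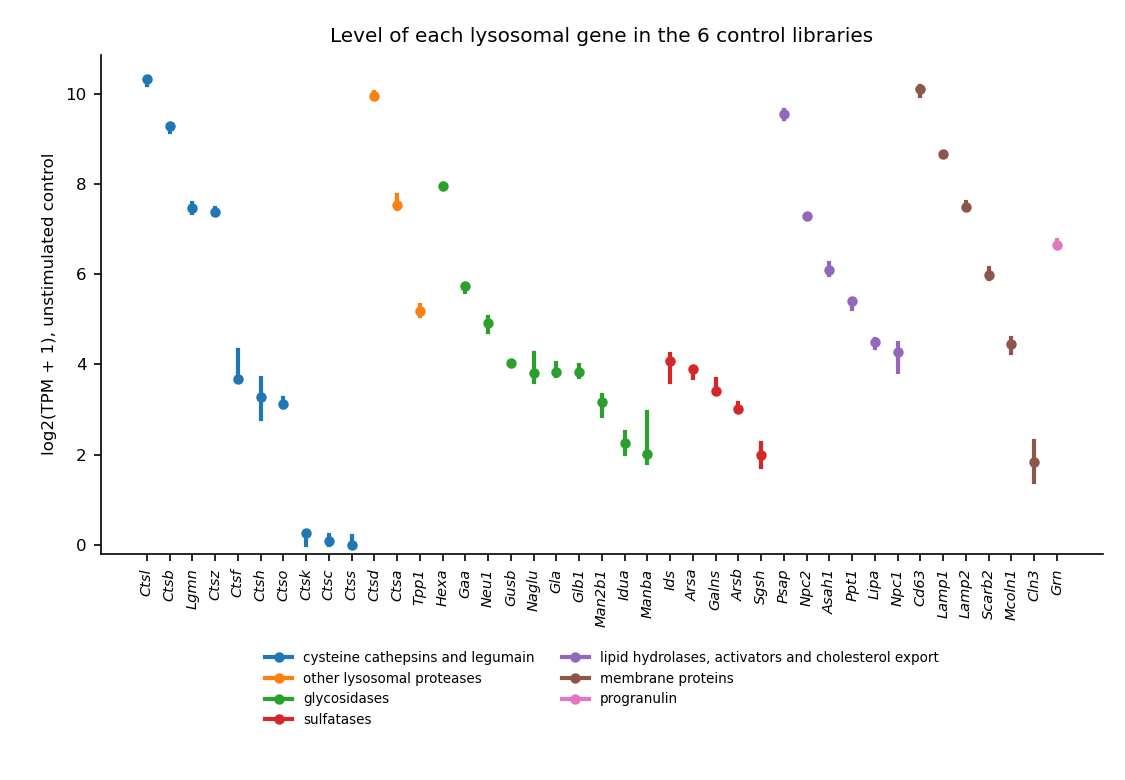
Level of each of the 41 lysosomal genes in the unstimulated control, as log2(TPM + 1) on the vertical axis, with a point at the median and a bar from the lowest to the highest of 6 libraries, coloured by role. Ctsl, Cd63 and Ctsd stand at the top near 1000 TPM, whereas Ctsk, Ctsc and Ctss lie at or near 0.

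Stimulation at 1 and 4 Hz was accompanied by small, widespread increases in the normalised counts of these genes, and stimulation at 10 Hz was not. On TMM-scaled counts (CPM, the counts of a gene for a common library size after TMM scaling), 19 of 38 genes were higher and 0 lower at 1 Hz at an adjusted p under 0.05 by edgeR's quasi-likelihood test, where 19.2% of all genes tested were higher and 18.1% lower (37.3% in either direction). At 4 Hz, 25 of 38 were higher and 0 lower, against 27.5% and 23.9% of all genes (51.4% in either direction). At 10 Hz, 0 were higher and 0 lower in edgeR, against 0.015% and 0.0225% of all genes, and the lowest adjusted p of the 38 was 0.5. DESeq2 gave 0 at 10 Hz as well, and so did limma on TPM. The 3 comparisons share the same 6 control libraries.

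Some genes used as markers of fibroblasts and of dividing cells moved with the same groups, in tissue made from a single line. Of 5 tested fibroblast markers, Pdgfra (log2 0.28 at 1 Hz and 0.36 at 4 Hz) and Dcn (0.39 and 0.43) rose, Col1a1 (-0.7 and -0.71) fell, and 2 did not pass. The summed level of the 6 listed ran from 379 to 576 TPM in the control, 296 to 570 at 1 Hz, 344 to 530 at 4 Hz and 463 to 586 at 10 Hz. Of 5 markers of dividing cells, Cdk1 rose at both frequencies (0.62 and 0.51), and Mki67 (-1.15) and Ccnb1 (-1.06) fell at 4 Hz. Their sum ran from 20.2 to 32.5 TPM in the control, 22.4 to 42.4 at 1 Hz, 17.4 to 29.5 at 4 Hz and 27.5 to 38 at 10 Hz. Whether these markers reflect separate cells, and what part such cells have in the lysosomal result, was not tested.

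The increases were modest. Their median log2(fold change) came to 0.25 at 1 Hz, to 0.32 at 4 Hz and to 0.06 at 10 Hz, beside 0.04, 0.06 and 0.01 over all genes tested. A log2(fold change) over 0.5 with the same adjusted p was reached by 1 gene at 1 Hz (Manba), where 7.19% of all genes reached it, and by 4 genes at 4 Hz (Ctso, Naglu, Arsa and Idua), against 12.8%. No gene went below -0.5 with that adjusted p at 1 Hz (7.74% of all genes) or 4 Hz (12.3%). All 6 stimulated libraries lay above every control library for 6 genes at 1 Hz (5.55% of all genes), for 16 at 4 Hz (12.9%) and for 0 at 10 Hz (0.774%). No gene of the set had all 6 libraries below every control at 1 Hz (8.58% of all genes), 4 Hz (14.7%) or 10 Hz (0.864%).

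The direction depends on the scale that is used. On log2(TPM + 1), the median of all genes fell by 0.14 at 1 Hz and by 0.21 at 4 Hz, and the median of the 38 genes was 0 and -0.03, and limma called 0 of them higher at either frequency. On that scale 3.58% of all genes were higher and 21.9% lower at 1 Hz, and 5.83% were higher and 35.9% lower at 4 Hz. Of the 38 genes, 1 (Gusb) was lower at 1 Hz and 3 (Gusb, Ids and Scarb2) were lower at 4 Hz. Relative to the median of all genes, the 38 were higher by 0.2 on the TMM scale and 0.14 on the TPM scale at 1 Hz, and by 0.26 and 0.18 at 4 Hz. On each scale most members lay above that median, 35 on the TMM scale and 33 on the TPM scale at both frequencies. When TPM values were centred on the median gene of each library, 18 of 38 were higher at 1 Hz and 22 at 4 Hz. There 16.8% and 26% of all genes tested were higher. Centring was not a planned setting and, like TMM, takes the typical gene as unchanged. The summed TPM of the 41 genes ran from 6700 to 6940 in the control, 6050 to 7430 at 1 Hz, 5640 to 7310 at 4 Hz and 6730 to 7170 at 10 Hz, and the groups overlapped. Ribosomal protein genes took 14.4% to 16.3% of all TPM in the control, 15.3% to 20.2% at 1 Hz, 16.8% to 22% at 4 Hz and 14.7% to 17% at 10 Hz, and their part in the fall of the TPM median was not tested. "Rose" and "higher" in what follows refer to the TMM scale, on which the typical gene did not move by more than 0.06. On it 19.2% of all genes rose at 1 Hz and 27.5% at 4 Hz, the shares to set beside the counts by role below.

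**Figure D2:**
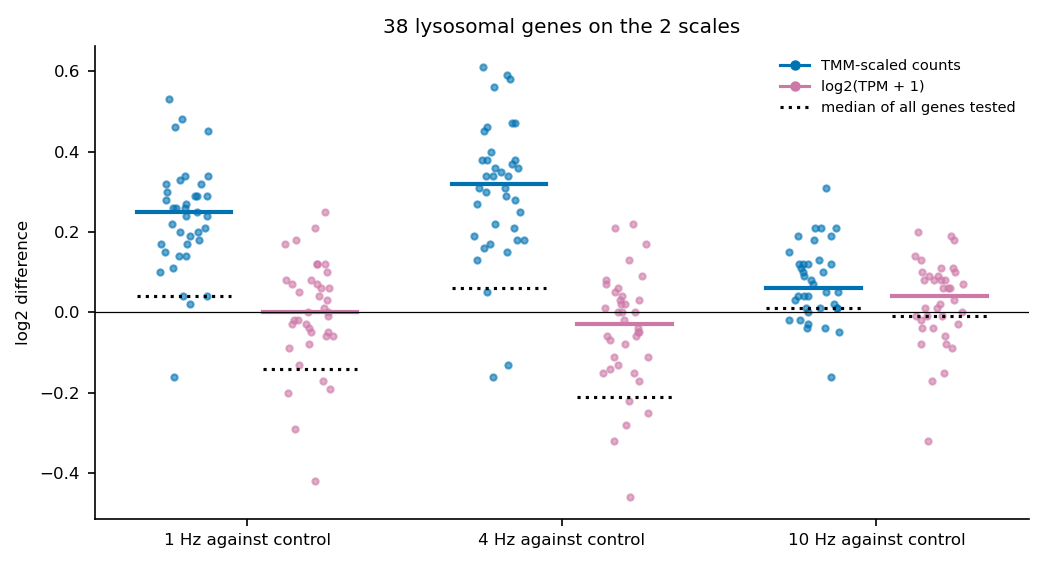
Difference from the control of each of the 38 genes (points), as log2(fold change) of TMM-scaled counts in blue and as the difference of log2(TPM + 1) in pink, with coloured bars at their medians and dotted bars at the median of all genes tested. The blue medians are 0.25, 0.32 and 0.06 and the pink ones 0, -0.03 and 0.04, so the sign at 1 and 4 Hz flips or vanishes on TPM, while both sets stand above their dotted bar.

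Some RNAs that have no poly(A) tail moved with the same groups. Of 9 such RNAs listed, 6 had enough counts to be tested. Rn7sk, Rmrp and Rpph1 rose at 1 Hz and at 4 Hz. H1f4 fell at 1 Hz (log2 -0.89), 2 did not pass there, and 3 did not pass at 4 Hz. At 10 Hz, 0 of the 6 passed. Rn7sk, a small nuclear RNA, was the only one of them used to sort the libraries. It was above its highest control value (82.4 TPM) in 5 of 6 libraries at 1 Hz, 3 at 4 Hz and 1 at 10 Hz. According to the labels, low-input samples were ribodepleted instead of selected for poly(A), and they are not named. In libraries with Rn7sk at or under the highest control, 3 remained at 4 Hz, with 18 of 38 genes higher, 1 lower (Gusb) and a median of 0.23, where 17.6% of all genes were higher, 20.5% lower and the median was 0.02. Only replicate 5 remained at 1 Hz. The median of the 38 genes was 0.07 in that library, and 0 were called, with its spread taken from the other groups, so this comparison describes 1 library and not the frequency. The part of library make-up in the remaining 1 Hz difference was not tested.

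**Figure D3:**
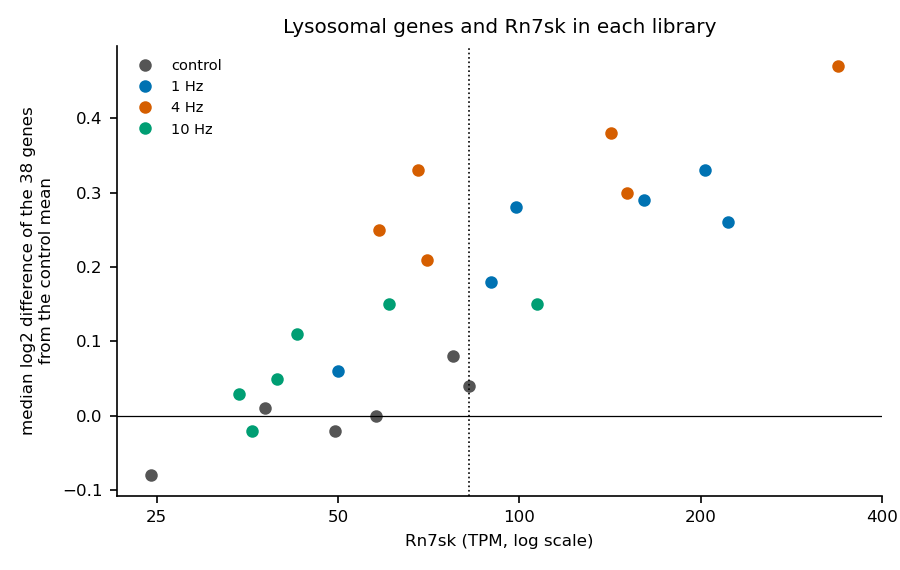
Median log2 difference of the 38 genes from the mean of the control (vertical axis) against the TPM of Rn7sk on a log scale (horizontal axis), 1 point for each of 24 libraries, with a dotted line at the highest control. Libraries at 4 Hz lie between 0.21 and 0.47 on both sides of the line, whereas the one 1 Hz library left of it is at 0.06 and the other 1 Hz libraries reach up to 0.33.

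Among the cysteine cathepsins and legumain, which cut proteins in the lumen, 3 of 7 tested genes rose at 1 Hz and 6 of 7 at 4 Hz, all but Ctsf. Cathepsin O (Ctso) had 15, 16.9 and 19.2 CPM as the lowest, median and highest of 6 control libraries, 17.5, 24.1 and 25.9 at 1 Hz, 23.8, 25.2 and 27.2 at 4 Hz, and 17.3, 19.6 and 21 at 10 Hz. It rose 1.37-fold at 1 Hz (log2 0.46, SE 0.0888, adjusted p = 0.00029) and 1.5-fold at 4 Hz (log2 0.59, SE 0.0892, adjusted p = 8.4e-06). Every 4 Hz library exceeded every control, a single 1 Hz library, replicate 5, fell within the control range, and 10 Hz overlapped the control. On the TPM scale the differences were 0.21 and 0.22, and neither passed. Ctso lies at chr3:81839873-81867246, where Gm9989 and Tdo2 overlap it on the opposite strand.

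Cathepsin L (Ctsl), a broad endopeptidase and the most abundant of the set, had 942, 984 and 1110 CPM in the control, 945, 1090 and 1550 at 1 Hz, 1140, 1260 and 1470 at 4 Hz, and 865, 936 and 1110 at 10 Hz. It rose 1.28-fold at 4 Hz (log2 0.36, SE 0.104, adjusted p = 0.0058), where all 6 libraries lay above the control. At 1 Hz the log2 difference was 0.24 (SE 0.104, adjusted p = 0.065), with replicates 4 and 6 above the other 1 Hz libraries, and its sign turned on TPM (-0.05) and in replicate 5 alone (-0.07). In the 4 Hz libraries with low Rn7sk the difference was 0.17 (adjusted p = 0.074). At 1 Hz it passed when replicate 1 (0.29, adjusted p = 0.038) or replicate 5 (0.3, adjusted p = 0.021) at 1 Hz was left out.

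Cathepsin B (Ctsb), which cuts both inside and at the ends of proteins, had 889, 1000 and 1020 CPM in the control, 1020, 1190 and 1290 at 1 Hz, 1130, 1230 and 1360 at 4 Hz, and 990, 1060 and 1140 at 10 Hz. It rose 1.2-fold at 1 Hz (log2 0.26, SE 0.0638, adjusted p = 0.0023) and 1.27-fold at 4 Hz (log2 0.34, SE 0.0639, adjusted p = 9.3e-05). The controls lay below all libraries of both groups, though replicate 5 at 1 Hz was only just above the highest control, and the 10 Hz libraries overlapped all other groups. On TPM its difference was about 0 at both frequencies (-0.0045 and 0.0033).

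Cathepsin F (Ctsf) had 12.4, 13.5 and 16.8 CPM in the control, 11, 14 and 18.8 at 1 Hz, 13.8, 16.8 and 18.7 at 4 Hz, and 10.8, 12.3 and 14.9 at 10 Hz. None of its differences from the control passed, at log2 0.04 (adjusted p = 0.79), 0.25 (adjusted p = 0.067) and -0.16 (adjusted p = 0.80). All 4 groups overlapped, with the 4 Hz median highest and the 10 Hz median lowest. The 4 Hz difference reached 0.31 (adjusted p = 0.03) without control replicate 1 and 0.3 (adjusted p = 0.036) without replicate 2 at 4 Hz, both past the threshold. Legumain (Lgmn), which cleaves after asparagine and trims cathepsins to their mature chains, rose by log2 0.32 (SE 0.0846, adjusted p = 0.0043) at 1 Hz and 0.47 (SE 0.0848, adjusted p = 7e-05) at 4 Hz. Cathepsin H (Ctsh, an aminopeptidase) and cathepsin Z (Ctsz, a carboxypeptidase) rose at 4 Hz, by log2 0.47 and 0.34.

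Of the other proteases, cathepsin A (Ctsa), a serine carboxypeptidase that also protects beta-galactosidase and neuraminidase, gave the smallest p of the set at both frequencies. It had 206, 221 and 238 CPM in the control, 261, 280 and 286 at 1 Hz, 273, 297 and 344 at 4 Hz, and 224, 238 and 260 at 10 Hz. It rose 1.26-fold at 1 Hz (log2 0.33, SE 0.0599, adjusted p = 0.00013) and 1.36-fold at 4 Hz (log2 0.45, SE 0.06, adjusted p = 1.5e-06). Neither group overlapped the control. At 10 Hz its log2 difference was 0.12 (adjusted p = 0.63), and all 6 libraries lay below every library at 1 and 4 Hz. On TPM the differences at 1 and 4 Hz were 0.08 and 0.09, and neither passed. Ctsa lies at chr2:164674778-164682961 (GRCm39) and overlaps Neurl2 and Pltp on the opposite strand, with which it would share reads if counting did not use strand.

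Cathepsin D (Ctsd), the aspartic protease of lysosomes, had 1160, 1230 and 1340 CPM in the control, 1180, 1370 and 1630 at 1 Hz, 1340, 1460 and 1710 at 4 Hz, and 1120, 1190 and 1430 at 10 Hz. It rose 1.21-fold at 4 Hz (log2 0.28, SE 0.0775, adjusted p = 0.0044), where 5 of 6 libraries exceeded every control, whereas on TPM the sign turned (-0.06). In the 4 Hz libraries with low Rn7sk it was at 0.17 (adjusted p = 0.084). At 1 Hz it was at log2 0.17 (adjusted p = 0.09), again with the opposite sign on TPM (-0.05), and passed without replicate 5 (0.21, adjusted p = 0.032) and with length and GC offsets (0.14, adjusted p = 0.042). Tripeptidyl peptidase (Tpp1), which removes tripeptides from protein ends, passed at neither frequency, at log2 0.1 and 0.13.

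**Figure D4:**
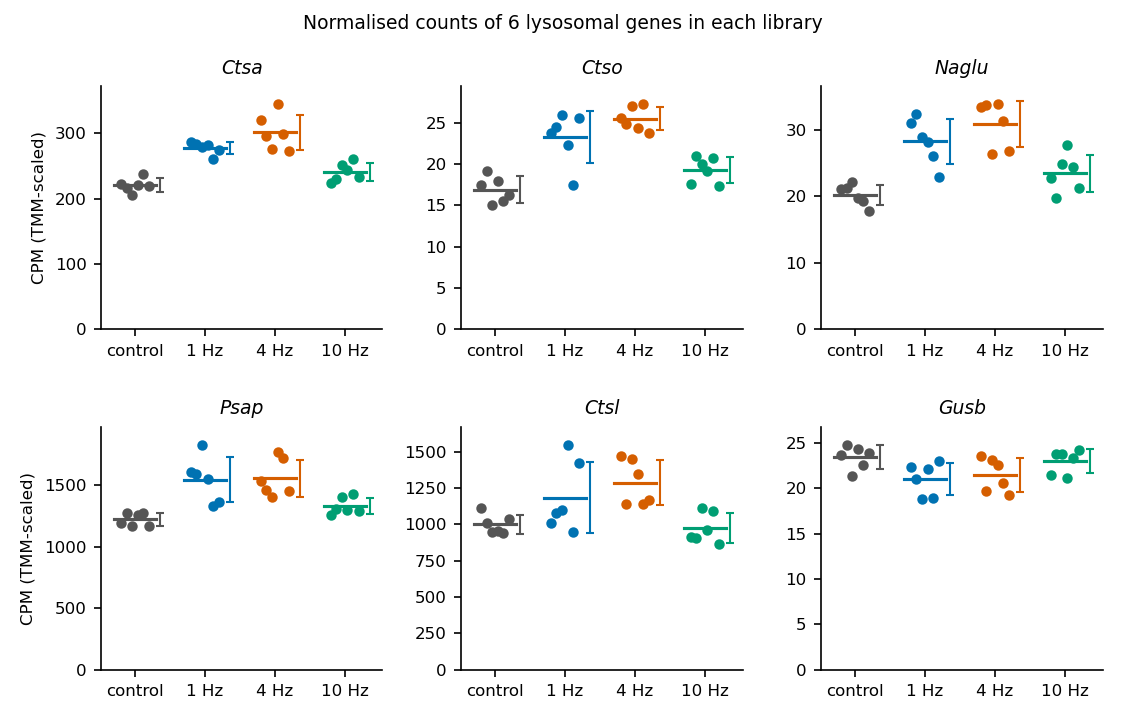
TMM-scaled CPM (vertical axes, from 0) of Ctsa, Ctso, Naglu, Psap, Ctsl and Gusb in each of 24 libraries by condition, with a line at each mean and a bar of 1 SD. For Ctsa, Naglu and Psap all points at 1 and 4 Hz lie above the control points, Ctso has 1 low library at 1 Hz, Ctsl spreads widely at 1 Hz, and for Gusb all conditions overlap. On TPM none of the increases passed.

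Of 10 glycosidases, which take sugars off glycoproteins, glycolipids and glycosaminoglycans, 5 rose at 1 Hz and 7 at 4 Hz. Naglu (alpha-N-acetylglucosaminidase, an enzyme of heparan sulfate breakdown) had 17.8, 20.4 and 22.1 CPM in the control, 22.9, 28.6 and 32.4 at 1 Hz, 26.3, 32.4 and 33.8 at 4 Hz, and 19.7, 23.6 and 27.7 at 10 Hz. It rose 1.39-fold at 1 Hz (log2 0.48, SE 0.095, adjusted p = 0.00035) and 1.53-fold at 4 Hz (log2 0.61, SE 0.0953, adjusted p = 1.1e-05). All libraries of both groups were above the control, and 4 of 6 at 10 Hz were too, although the 10 Hz difference did not pass (log2 0.21, adjusted p = 0.58). On TPM the differences at 1 and 4 Hz were 0.25 and 0.21, and neither passed. Naglu, at chr11:100960838-100968517, overlaps no annotated gene on the opposite strand.

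Idua (alpha-L-iduronidase, which acts on heparan and dermatan sulfate) had 6.32, 7.17 and 7.58 CPM in the control, 7.3, 8.55 and 10.8 at 1 Hz, 8.29, 10.1 and 14.1 at 4 Hz, and 5.23, 7.18 and 9.12 at 10 Hz. It rose 1.47-fold at 4 Hz (log2 0.56, SE 0.129, adjusted p = 0.00094), with no overlap with the control, and on TPM the difference was 0.05. At 1 Hz it was at log2 0.32 (adjusted p = 0.054) and at -0.02 on TPM, and passed without replicate 3 (0.35, adjusted p = 0.046) or replicate 5 (0.35, adjusted p = 0.044). It also passed with upper-quartile scaling (0.34, adjusted p = 0.044), with only those 2 groups in the fit (0.32, adjusted p = 0.035) and with length and GC offsets (0.37, adjusted p = 0.019). In the 4 Hz libraries with low Rn7sk it was at 0.36 (adjusted p = 0.049). Replicate 1 at 4 Hz was the highest library. Idua, at chr5:108808197-108834523, shares its locus with Slc26a1, Dgkq and Gm42151 on the opposite strand.

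Manba (beta-mannosidase, which removes the last mannose of N-glycans) had 4.7, 6.05 and 7.38 CPM in the control, 7.78, 8.44 and 11.6 at 1 Hz, 7.07, 8.5 and 9.85 at 4 Hz, and 6.26, 7.48 and 8.72 at 10 Hz. It rose 1.44-fold at 1 Hz (log2 0.53, SE 0.123, adjusted p = 0.0016) and 1.38-fold at 4 Hz (log2 0.46, SE 0.125, adjusted p = 0.0035), whereas on TPM the sign turned, to -0.01 and -0.11. Centred on the median gene, TPM gave 0.21 (adjusted p = 0.26) and 0.2 (adjusted p = 0.24), so neither call held there, and in the 4 Hz libraries with low Rn7sk the difference was 0.31 (adjusted p = 0.11). Replicate 3 at 1 Hz stood apart at 11.6, and the other 1 Hz libraries still lay above all controls. At under 12 CPM in every library, Manba is among the less precisely measured members, and its 10 Hz difference (log2 0.31) did not pass (adjusted p = 0.51).

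Glb1 (beta-galactosidase) had 17.9, 19.2 and 22.3 CPM in the control, 19.9, 23.3 and 26.2 at 1 Hz, 22, 23.8 and 28.9 at 4 Hz, and 20.7, 22.3 and 25 at 10 Hz. It rose by log2 0.26 at 1 Hz (SE 0.0831, adjusted p = 0.018) and 0.34 at 4 Hz (SE 0.0835, adjusted p = 0.0014), with differences of 0.04 and 0.01 on TPM. Its call at 1 Hz was lost without replicate 3 (0.21, adjusted p = 0.053) and with no filter on low counts (0.22, adjusted p = 0.11). Its 10 Hz difference, log2 0.21, had the smallest p of the set at that frequency and did not pass (adjusted p = 0.50). Controls overlapped each stimulated group in at least 1 library.

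Gusb (beta-glucuronidase) went the other way. It had 21.3, 23.8 and 24.8 CPM in the control, 18.8, 21.5 and 23 at 1 Hz, 19.2, 21.6 and 23.5 at 4 Hz, and 21.1, 23.5 and 24.2 at 10 Hz. The log2 differences of -0.16 at 1 Hz (SE 0.0745, adjusted p = 0.1) and -0.13 at 4 Hz (SE 0.0751, adjusted p = 0.14) did not pass, and the groups overlapped. The 1 Hz difference passed without replicate 6 (-0.21, adjusted p = 0.036). With low Rn7sk libraries the 4 Hz difference was -0.27 (adjusted p = 0.014). On TPM both passed, at -0.29 (adjusted p = 0.017) and -0.32 (adjusted p = 0.0053, limma). Gaa, which degrades glycogen inside lysosomes, rose at 4 Hz (log2 0.38, SE 0.0713, adjusted p = 9.9e-05) and was at log2 0.14 (adjusted p = 0.12) at 1 Hz. Hexa, the alpha chain of beta-hexosaminidase, rose by log2 0.29 and 0.38, and Neu1, the lysosomal sialidase, by 0.22 and 0.36 at 1 and 4 Hz. Gla (alpha-galactosidase) and Man2b1 (alpha-mannosidase) passed at neither, with log2 differences between 0.14 and 0.19.

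Of 5 sulfatases, which remove sulfate from glycosaminoglycans and sulfolipids, 3 rose at 1 Hz and 2 at 4 Hz. Arsa (arylsulfatase A, which acts on the myelin lipid sulfatide) had 20.3, 24.6 and 27 CPM in the control, 26.2, 34.5 and 36.9 at 1 Hz, 29.4, 34.3 and 45.2 at 4 Hz, and 25.2, 27.1 and 28.8 at 10 Hz. It rose 1.37-fold at 1 Hz (log2 0.45, SE 0.102, adjusted p = 0.0011) and 1.5-fold at 4 Hz (log2 0.58, SE 0.102, adjusted p = 4.9e-05), with 0.17 at both on TPM, where it did not pass. All 4 Hz libraries were above the control, and only replicate 6 at 1 Hz fell within it. Galns, which desulfates keratan and chondroitin sulfate, rose at both frequencies (log2 0.25 and 0.31), and Arsb, which acts on dermatan sulfate, at 1 Hz (log2 0.29). Ids (iduronate sulfatase) was at log2 0.04 and -0.16 and Sgsh (sulfamidase, for heparan sulfate) at 0.11 and 0.29, none of which passed.

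Of 6 genes for lipid breakdown and cholesterol export, 5 rose at 1 Hz and 4 at 4 Hz. Psap (prosaposin, the precursor of the saposins that present sphingolipids to their hydrolases) had 1170, 1230 and 1270 CPM in the control, 1330, 1570 and 1830 at 1 Hz, 1400, 1500 and 1770 at 4 Hz, and 1260, 1310 and 1430 at 10 Hz. It rose 1.26-fold at 1 Hz (log2 0.34, SE 0.0749, adjusted p = 0.001) and 1.27-fold at 4 Hz (log2 0.35, SE 0.0749, adjusted p = 0.00045), with 0.12 and 0.02 on TPM, where neither passed. Both groups stood clear of the control. Npc2, the soluble cholesterol carrier, rose by log2 0.34 and 0.4, Ppt1, which removes palmitate from proteins, by 0.26 and 0.31, and Asah1 (acid ceramidase) by 0.29 and 0.22. Lipa (acid lipase) passed at 1 Hz (log2 0.24, adjusted p = 0.035) and was at 0.18 (adjusted p = 0.1) at 4 Hz, and the difference between the 2 frequencies did not pass for any member. Npc1, the membrane partner of Npc2, was at log2 0.3 and 0.21 and passed at neither.

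Of 6 membrane proteins, 1 rose at 1 Hz (Lamp1) and 3 at 4 Hz (Lamp1, Cd63 and Mcoln1). Cd63, a tetraspanin of late endosomes and lysosomes that is also carried by exosomes, had 567, 630 and 685 CPM in the control, 537, 677 and 971 at 1 Hz, 600, 716 and 1000 at 4 Hz, and 585, 642 and 710 at 10 Hz. It rose 1.23-fold at 4 Hz by a narrow margin (log2 0.30, SE 0.123, adjusted p = 0.046) and was at log2 0.20 (adjusted p = 0.2) at 1 Hz, and on TPM the sign turned, to -0.05 and -0.04. Groups overlapped, with replicates 1 and 3 at 4 Hz and 4 and 6 at 1 Hz far above the rest, and without replicate 3 at 4 Hz the difference was 0.18 (adjusted p = 0.22). The call was also lost, at 0.24 to 0.29, without replicate 1 or 4 at 4 Hz or without control replicate 3, 4, 5 or 6. It did not pass with RLE scaling (0.27, adjusted p = 0.063), no filter (0.25, adjusted p = 0.15), the replicate block (0.28, adjusted p = 0.076), DESeq2 (0.27, adjusted p = 0.073) or centred TPM (0.25, adjusted p = 0.1). The difference was 0.08 (adjusted p = 0.56) with length and GC offsets and 0.06 (adjusted p = 0.58) with low Rn7sk libraries. Lamp1 rose by log2 0.15 (SE 0.0526, adjusted p = 0.026) at 1 Hz and 0.16 (SE 0.0526, adjusted p = 0.016) at 4 Hz, and Mcoln1, a calcium channel of the lysosomal membrane, by 0.27 at 4 Hz. Lamp2, the partner of Lamp1, was at log2 0.19 and 0.18, Scarb2, which carries glucocerebrosidase to lysosomes, at 0.02 and 0.05, and Cln3, at under 3 CPM in every library, at 0.17 and 0.38, none past the threshold. Progranulin (Grn), a secreted protein that lysosomes cut into granulins, rose by log2 0.27 (adjusted p = 0.0049) and 0.37 (adjusted p = 0.00019).

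**Figure D5:**
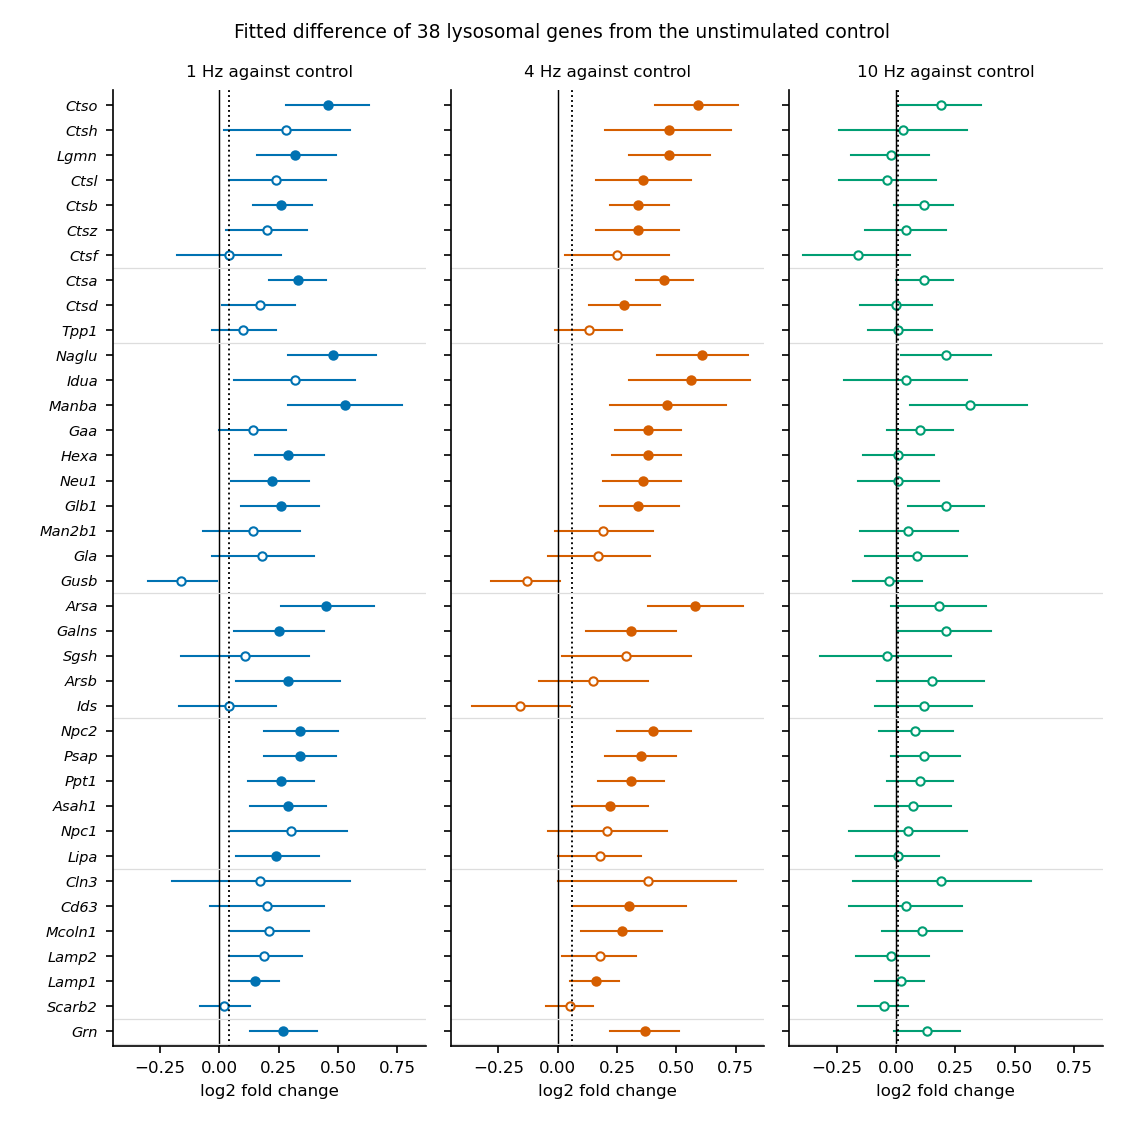
Log2(fold change) of TMM-scaled counts (horizontal axis) with approximate 95% intervals for the 38 tested genes, grouped by role and ordered by the 4 Hz value, at 1, 4 and 10 Hz against the control, with filled points where the adjusted p was under 0.05 and a dotted line at the median of all genes. Filled points number 19, 25 and 0, all to the right of 0, and on TPM none of the filled increases passed.

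The frequencies were also compared with each other. At 4 Hz against 1 Hz, edgeR called 0 of 38 genes changed (0% of all genes). Gaa had the smallest p (log2 0.24, approximate 95% interval 0.1 to 0.38, adjusted p = 0.32). The median difference was 0.08. At 10 Hz against 1 Hz, 10 genes were lower and 0 higher, where 13.1% of all genes were lower and 14.8% higher (27.9% in either direction). At 10 Hz against 4 Hz, 21 were lower and 1 higher, against 24.4% and 21.9% of all genes (46.3% in either direction). Past an absolute log2(fold change) of 0.5 there were 0 genes against 1 Hz (4.99% of all genes lower and 5.85% higher) and 1, Idua, lower against 4 Hz (10.6% lower and 10.6% higher). Lgmn fell most clearly, by 0.34 on the log2 scale against 1 Hz (SE 0.0848, adjusted p = 0.0039) and by 0.49 against 4 Hz (SE 0.0849, adjusted p = 6.1e-05). Ctsa fell by 0.21 and by 0.33, and Hexa by 0.28 and by 0.36. Ids was the one gene higher at 10 Hz than at 4 Hz (log2 0.27, SE 0.106, adjusted p = 0.039). With single libraries left out, shares of all genes were not computed. The count of 10 against 1 Hz rose to 18 without replicate 5 at 1 Hz. It was 4 without replicate 3 at 1 Hz or replicate 1 or 6 at 10 Hz, 5 without replicate 2 or 4 at 1 Hz, and 6 without replicate 2 or 4 at 10 Hz. These comparisons, too, turn on the scale, because on TPM 1 gene was higher and 0 lower against 1 Hz, and 2 were higher and 0 lower against 4 Hz. On that scale 15.5% of all genes were higher and 2.19% lower against 1 Hz, and 33.2% and 5.06% against 4 Hz.

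Transcript length moved with the 1 and 4 Hz groups over all genes. Lengths were those of the annotated canonical transcript (GENCODE M39), which need not be the one expressed. Ctsl had 5908 bases, with control means of 1260 TPM and 1000 CPM. Ctsd had 2127 bases, with 993 TPM and 1230 CPM. More TPM per count goes with a shorter transcript, so the length used for Ctsl was probably too long, and classes and offsets are approximate. Over 4 classes of length with like numbers of genes, from the shortest to the longest transcripts, all genes had medians at 4 Hz of 0.31, 0.09, -0.03 and -0.11. The lysosomal set was at 0.3, 0.31, 0.34 and 0.36, with 3, 17, 13 and 5 genes. It lay at the median of all genes in the class of shortest transcripts and above it in the others. At 1 Hz the set was at 0.2, 0.25, 0.22 and 0.3, beside 0.21, 0.06, -0.03 and -0.08. With offsets for length and GC content, 24 genes were higher at 1 Hz and 30 at 4 Hz, beside 21.7% and 29% of all genes. These offsets were not a planned setting and used the same annotated lengths.

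Genes with and without CACGTG near the start were both among those that rose. Of the 12 with the letters, 5 rose at 1 Hz and 8 at 4 Hz, and of the 26 tested genes without them, 14 and 17. Over all genes tested, 19.2% rose at 1 Hz and 27.5% at 4 Hz. The medians were 0.18 and 0.27 at 1 Hz and 0.32 and 0.32 at 4 Hz.

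Other lysosomal genes gave a mixed picture. Beside the counts of these lists, 19.2% of all genes rose and 18.1% fell at 1 Hz, and 27.5% rose and 23.9% fell at 4 Hz. Of 20 hydrolases outside the set, 9 rose and 1 fell at 1 Hz (median 0.23), and 13 rose and 1 fell at 4 Hz (median 0.28). The gene that fell at both frequencies was Galc (galactosylceramidase), by 0.25 and by 0.3 on the log2 scale. Of 16 subunits of the proton pump that acidifies lysosomes, 5 rose and 2 fell at 1 Hz and 5 rose and 3 fell at 4 Hz, with Atp6v1f at log2 0.44 and 0.66 and Atp6v0a2 at -0.73 and -0.85. Of 10 genes for the tagging and delivery of hydrolases, 1 rose and 2 fell at 1 Hz, and 2 rose and 2 fell at 4 Hz. Gnptab, which encodes the catalytic chains of the enzyme that starts the mannose phosphate tag, was at -0.8 and -0.86, its partner Gnptg at 0.38 and 0.59, and the sorting adaptor Gga3 at -0.47 and -0.6, all past the threshold.

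Of the transcription factors, Tfec was under the filter and Tfeb did not pass (log2 -0.1 at 1 Hz and 0.16 at 4 Hz). Mitf rose from 9.33 ± 1.45 CPM (SD, n = 6) in the control to 14 ± 1.35 at 1 Hz and 14.4 ± 1.65 at 4 Hz, and was at 10 ± 1.19 at 10 Hz (adjusted p = 0.00016, 4.3e-05 and 0.9 in edgeR). Tfe3 rose at 1 Hz (log2 0.28, adjusted p = 0.01) and was at 0.13 at 4 Hz. Of 13 tested genes of nutrient sensing on the lysosomal surface, 4 rose and 2 fell at 1 Hz, and 4 rose and 3 fell at 4 Hz. The same shares of all genes, 19.2% and 18.1% at 1 Hz and 27.5% and 23.9% at 4 Hz, stand beside them. Among them were Lamtor4 (log2 0.4 and 0.52), Fnip2 (0.62 and 0.54) and Rragc (-0.19 and -0.39). Of 3 inhibitors of cysteine cathepsins, Cstb and Cst3 rose at both frequencies, by log2 0.4 and 0.49 for Cstb and by 0.28 and 0.47 for Cst3. At 10 Hz no gene of these lists passed. What part the trend with transcript length over all genes has in the values of these lists was not tested.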

How the data were processed

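RNA of 24 libraries (6 per condition) was read as the authors deposited it. The deposited estimated counts per gene came from salmon in the nf-core/rnaseq pipeline with GRCm39, not normalised. The TPM values were deposited by the authors, divided by transcript length and scaled to the same total in each library. The submitters' processing notes also name BWA 0.7.12-r1039, bedtools 2.25.0 and STAR. The paper's methods name a directional kit, so reads carry their strand, but whether counting used it, and whether ribodepleted libraries kept it, is not given in the sources used here. Of the 41 genes, 27 overlap a gene on the opposite strand, with which they would share reads if strand was not used. Of the estimated counts, 6.15% were not whole (tolerance 0.001).

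Counts were rounded, filtered by filterByExpr (minimum count 10, minimum total 15), scaled by TMM and tested by edgeR 4.0.16 (quasi-likelihood, robust, 1 mean per condition over all 24 libraries, R 4.3.3), with Benjamini-Hochberg adjustment over 13315 genes. CPM values use the TMM-scaled library sizes, and log2 CPM a prior count of 2. Each SE is the absolute log2(fold change) divided by the square root of the F statistic. The 95% intervals reach 1.96 SE each way, so they are approximate and can be narrower than the test implies. The biological coefficient of variation was 14.8%, which, with the depth, limits the precision. Each gene had 1 estimate of spread for all 4 conditions, whereas some libraries at 1 and 4 Hz differed more from each other. Between 2 libraries of a condition, the chi-square per degree of freedom over genes reached 75.8 at 1 Hz and 79.7 at 4 Hz. It reached 18.9 in the control and 23.8 at 10 Hz. TPM was tested with limma 3.58.1 on log2(TPM + 1). DESeq2 1.42.0, apeglm 1.24.0, other scalings and filters, replicate blocks and single libraries left out were the alternatives. The method was also run on simulated counts in which few genes changed, equally up and down. Those counts had the same spread in every group and no shift in library make-up, so the run does not bear on the calls here. GENCODE M39 (GRCm39) gave positions, with 98.9% of the identifiers found. The member genes and gene lists were chosen with earlier results of these data known. Full values are given for genes past adjusted p 0.05 and log2(fold change) 0.5, the 5 with the highest control TPM, and the smallest p in each direction per frequency.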

Additional observations from a re-analysis of the deposited data

Results flagged for a closer look

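Each of the 38 tested genes was examined in each of the 4 groups of 6 libraries, 152 groups of values in all, for a library far from the other 5 (a gap past Dixon's 95% critical value). There were 7 such values, and chance gives about 1 in 20 groups. Control replicate 1 held 3 of them, with Ctsz at 152 CPM where the other controls ran from 135 to 138, Tpp1 at 65 (others 69.3 to 71.4) and Ids at 37.1 (others 47.9 to 53.9). Gaa was at 98.2 CPM in control replicate 3, below the other controls at 114 to 120. Manba was at 11.6 CPM in replicate 3 at 1 Hz, above the others at 7.78 to 8.9. Npc1 was at 62.2 CPM in replicate 2 at 4 Hz, above 51.8 to 54.9, and Cln3 at 2.92 CPM in replicate 3 at 4 Hz, above 1.4 to 1.82.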

How the results depend on the processing

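The 19 and 25 genes higher at 1 and 4 Hz held within 1.5 times under RLE and upper-quartile scaling, a stricter filter and DESeq2. They also held with no filter (13 and 20, beside 5.97% and 9.78% of all genes). With the replicate block they were 18 and 24, beside 17% and 26.3%. They held with length and GC offsets and with TPM centred on the median gene, which, like the low Rn7sk selection, were not planned settings. Centring, like TMM, takes the typical gene as unchanged, so it is no independent check of the uncentred TPM result. On uncentred TPM with limma, with a pseudocount of 1 or of 0.1, the counts did not hold. There 0 were higher at both, and 1 was lower at 1 Hz and 3 at 4 Hz. The medians were 0 and 0 at 1 Hz and -0.03 and -0.04 at 4 Hz. With low Rn7sk libraries only, 18 were higher and 1 was lower at 4 Hz, while 1 Hz was left with 1 library (0 higher, median 0.07), which says nothing of the frequency. Past 0.5 on the log2 scale there were 1 and 4. Without single libraries, the count at 1 Hz ran from 14 to 26 (0 to 1 lower), that at 4 Hz from 22 to 26, and that at 10 Hz stayed 0. Shares of all genes were not computed with single libraries left out, here or for 10 Hz against 1 Hz. Whether the members or all genes moved there cannot be told. At 10 Hz against 1 Hz, 10 genes changed, where 14.8% of all genes were higher and 13.1% lower. They became 2 with no filter (6.19% of all genes higher and 3.42% lower) and 5 with only these groups in the fit (11.6% and 8.64%). The count was 6 with the replicate block (14% and 10.6%) and 18 with length and GC offsets (16.1% and 16.4%). On TPM it was 1 with a pseudocount of 1 (15.5% and 2.19%) or of 0.1 (15% and 2.15%). Past 0.5 it was 0 (5.85% and 4.99%), and without single libraries it ran from 4 to 18. With low Rn7sk libraries, 1 Hz was left with 1 library, so no count is given. The 22 changed at 10 Hz against 4 Hz (21.9% of all genes higher and 24.4% lower) became 2 on TPM (33.2% and 5.06%). They became 13 with low Rn7sk libraries (18.7% and 15.5%) and 1 past 0.5 (10.6% and 10.6%). Replicate numbers do not pair the libraries (3 of 36 pairs correlated over 0.1, and 4 of 36 best with their own number), and the replicate block moved no other count by over 1.5 times. The cause of these shifts was not tested. Signs turned on TPM (pseudocount 1, then 0.1) for Idua at 1 Hz (-0.02, -0.03) and 10 Hz (-0.15, -0.18, and -0.13 when centred), Manba at 1 Hz (-0.01, -0.0036) and 4 Hz (-0.11, -0.13), Ctsl at 1 Hz (-0.05 in both), Cd63 at 1 Hz (-0.04) and 4 Hz (-0.05), Ctsd at 1 Hz (-0.05) and 4 Hz (-0.06), Ctsb at 1 Hz (-0.0045, -0.0046) and Ctsf at 1 Hz (-0.2, -0.22). In the single low Rn7sk library at 1 Hz, Ctsl (-0.07), Cd63 (-0.21), Ctsd (-0.05) and Ctsf (-0.03) were under the control mean. Signs also turned for Ctsf with length and GC offsets (-0.0032), and for Ctsd at 10 Hz with apeglm (0.02). Without single libraries, Idua at 10 Hz ran from -0.04 to 0.11, Ctsd at 10 Hz from -0.05 to 0.03, and Ctsf at 1 Hz from -0.08 to 0.1. Depth limits genes such as Cln3 and Manba, whose CPM values are low.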
